A study of Mus musculus with 6 samples.

Results

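The collagen genes of hyaline cartilage were followed in RNA-seq of primary mouse chondrocytes in which the glycolytic enzyme pyruvate kinase M2 had been knocked down. The genes were Col2a1, the 3 chains of collagen IX (Col9a1, Col9a2 and Col9a3), Col10a1, the chains Col11a1 and Col11a2 of collagen XI, and Col27a1, and they were chosen by name from the deposited table. All 8 of the 8 genes were found among 55416 genes in the table, and all 8 were among the 15269 genes that passed the filter on low counts. The study asked what pyruvate kinase M2 does in chondrocytes, with the metabolism of the cartilage matrix as one readout.

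There were 2 groups of 3 libraries each. Chondrocytes of the siNC group received a scrambled control siRNA, and chondrocytes of the siPkm2 group received an siRNA against Pkm2. Both groups came from mouse knee joints, with the genotype given as WT for siNC, and no agent other than the siRNA is named for either. The labels describe the mice as neonatal, whereas the supplementary methods of the study take chondrocytes from adult mice. The titles name all 3 knockdown libraries as siPKM2, while the genotype labels read PKM2, PKM3 and PKM4 knockdown for replicates 1, 2 and 3, and the titles were followed. Nothing states that the libraries came from separate animals. The p-values below therefore measure the spread between libraries or, where the replicate number enters as a block, the spread left within replicate pairs.

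Fibrils of hyaline cartilage are built mainly from collagen II, a trimer of 3 identical α1(II) chains encoded by Col2a1. Collagen XI is laid down inside these fibrils and limits their width, and collagen IX sits on their surface, where it links them to other matrix proteins. Collagen X is made by hypertrophic chondrocytes of the growth plate, and collagen XXVII is a fibrillar collagen of developing cartilage. Transcription of the chondrocyte collagen genes depends on SOX9 with its partners SOX5 and SOX6, whereas Col10a1 is a target of RUNX2 and MEF2C.

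The promoters differed in sequence features among the 6 of the 8 genes found in the RefSeq promoter table (GRCm38.p6); Col2a1 and Col9a3 were not in it. The 250 bases before the start annotated by RefSeq are shown for 4 genes, because Col10a1 followed another course over the libraries than Col9a2, Col11a1 and Col11a2. Capitals mark 3 motifs searched on both strands. The SOX core was taken as ACAAAG or ACAATG. The TATA box was taken as TATAAA. The GC box was taken as GGGCGG and reads as CCGCCC where it lay on the other strand. None of these motifs overlapped another in the windows printed. The intervals, all on the plus strand, were chr10:34389731-34389980 for Col10a1, chr3:114030290-114030539 for Col11a1, chr17:34038888-34039137 for Col11a2 and chr4:121039316-121039565 for Col9a2. The RefSeq starts of Col10a1 and Col11a1 are also the gene starts in GENCODE, whose gene positions are given with each gene. For Col11a2 the RefSeq start lies before the GENCODE gene start, and for Col9a2 it lies after it, so most of the Col9a2 window, with both of its GC boxes, is inside the GENCODE gene; the Col27a1 window is inside it as a whole.
Col10a1: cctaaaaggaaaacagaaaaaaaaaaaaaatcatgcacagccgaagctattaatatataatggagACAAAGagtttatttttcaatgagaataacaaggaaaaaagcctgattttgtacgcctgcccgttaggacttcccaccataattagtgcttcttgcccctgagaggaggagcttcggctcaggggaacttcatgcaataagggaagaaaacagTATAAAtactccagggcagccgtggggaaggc
Col11a1: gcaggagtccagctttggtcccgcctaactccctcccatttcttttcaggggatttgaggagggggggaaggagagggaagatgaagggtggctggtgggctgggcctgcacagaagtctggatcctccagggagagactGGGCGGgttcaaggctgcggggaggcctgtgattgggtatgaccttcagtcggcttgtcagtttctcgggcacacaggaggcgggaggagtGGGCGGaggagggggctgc
Col11a2: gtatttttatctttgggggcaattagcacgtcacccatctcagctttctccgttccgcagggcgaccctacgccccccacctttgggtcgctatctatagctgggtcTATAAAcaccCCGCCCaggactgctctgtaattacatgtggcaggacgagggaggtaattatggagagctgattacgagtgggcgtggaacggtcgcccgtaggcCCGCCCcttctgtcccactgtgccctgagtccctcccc
Col9a2: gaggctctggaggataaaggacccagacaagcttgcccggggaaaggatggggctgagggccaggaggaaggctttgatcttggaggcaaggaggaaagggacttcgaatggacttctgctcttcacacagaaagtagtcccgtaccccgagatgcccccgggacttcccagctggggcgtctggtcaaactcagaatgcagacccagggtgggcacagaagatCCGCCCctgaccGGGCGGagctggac
The SOX core was found in Col10a1 alone among the 6 genes, 185 bases before the start, and 25.2% of 32851 promoters of the same length hold one. A TATA box lay 32 bases before the start of Col10a1 and 143 bases before that of Col11a2, against 12.4% of all promoters. GC boxes were found in Col11a1 (2), Col11a2 (2), Col9a2 (2) and Col27a1 (1), and in 32.7% of all promoters. No GC box was found in Col10a1 or before either of the 2 annotated starts of Col9a1. The GC content was 41.6% in Col10a1 and 62.4% in Col11a1, with a median of 52.4% over all promoters. Before the upstream and downstream starts of Col9a1 it was 43.6% and 56%, so a low GC content was not particular to Col10a1. No match says only that the letters are not in this window.

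The knockdown was checked first. Pkm, the gene that encodes pyruvate kinase M1 and M2, had 2335, 2746 and 1674 CPM (counts scaled to a common library size with TMM factors) in siNC replicates 1, 2 and 3. It had 336, 541 and 309 CPM in siPkm2 replicates 1, 2 and 3, so the groups did not overlap. The log2 fold change of Pkm was -2.51 (SE 0.33, adjusted p = 0.0738 in a quasi-likelihood test by edgeR, adjusted over all genes by Benjamini-Hochberg), and it was -2.53 with an adjusted p of 0.00932 when the replicate number entered the same fit as a block. Counts per gene do not separate the M1 and M2 transcripts. Estimated counts summed to between 22317065 and 25691096 per library. All 10 chondrocyte marker genes passed the filter on low counts, and each had counts in all 6 libraries.

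Ordered per transcript length, Col2a1 was the most abundant cartilage collagen in every library. Its level was 11219, 3015 and 11904 TPM (a level scaled for transcript length and to 1 total per library) in siNC replicates 1, 2 and 3, and 8902, 3847 and 9040 TPM in siPkm2 replicates 1, 2 and 3. Col2a1 alone held 3.51%, 0.922% and 3.43% of all counts in the siNC libraries and 2.73%, 1.18% and 2.70% in the siPkm2 libraries. Replicate 2 was the lowest of its group in both cases. Col11a1, with a mean of 1221 ± 809 TPM in siNC (SD, n = 3), and Col9a1, with 1031 ± 705 TPM in siNC (SD, n = 3), came next. Their difference was within the spread between libraries, although Col11a1 was higher than Col9a1 in all 6 libraries. Col11a2 had 489 ± 352 TPM in siNC (SD, n = 3), Col9a2 342 ± 158 TPM (SD, n = 3) and Col9a3 291 ± 164 TPM (SD, n = 3), and these 3 neighbours did not differ beyond their spread. At the low end stood Col27a1 with 97.3 ± 79.6 TPM and Col10a1 with 21.7 ± 6.83 TPM in siNC (SD, n = 3). Col27a1 was above Col10a1 in replicates 1 and 3 of both groups, and the 2 genes were close together in both libraries of replicate 2.

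**Figure D1:**
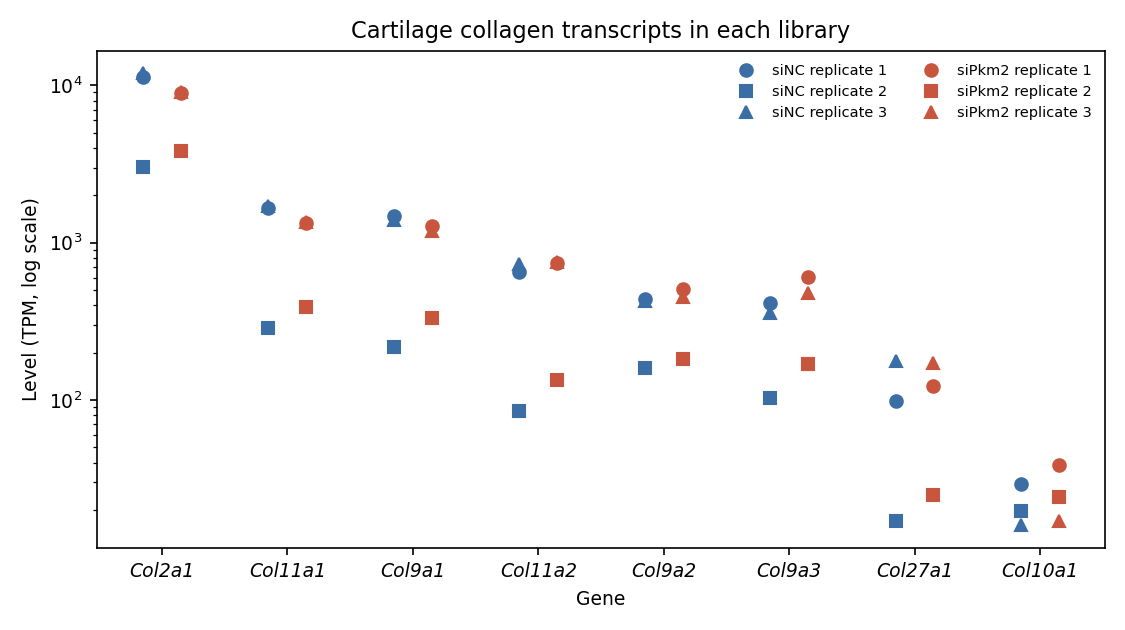
Level of each cartilage collagen gene in each of the 6 libraries, in TPM on a log scale, with siNC in blue and siPkm2 in red and the replicate number given by the marker. Replicate 2 (squares) lies lowest in both groups for every gene but Col10a1, and Col2a1 ranges from 3015 to 11904 TPM.

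Replicate 2 stood apart from replicates 1 and 3 in both groups. At least 2-fold lower CPM in replicate 2 than in each of replicates 1 and 3, in both groups, was measured for 7 of the 8 genes. This held for 2.46% of all genes tested. The drops given next are against the mean of replicates 1 and 3. In siNC the drop was 4.16-fold for Col2a1, 7.38-fold for Col9a1, 2.92-fold for Col9a2, 4.19-fold for Col9a3, 6.41-fold for Col11a1, 8.24-fold for Col11a2 and 9.02-fold for Col27a1. In siPkm2 it ranged from 2.46-fold for Col2a1 to 6.36-fold for Col27a1. Col10a1 was the exception, with replicate 2 lower by 1.26-fold in siNC and 1.22-fold in siPkm2. At least 2-fold lower CPM in replicate 2 of both groups was also measured for 9 of the 10 chondrocyte markers and 9 of 20 tested fibril partners. The marker list includes Col2a1 and other members. Both lists hold Acan, Hapln1, Comp, Matn3, Cnmd and Snorc, so these counts overlap. Acan, the core protein of the cartilage proteoglycan aggrecan, had 2566, 233 and 2617 CPM in siNC and 3376, 470 and 3323 CPM in siPkm2.

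Other genes moved the opposite way in replicate 2. Mmp3, a stromelysin that degrades matrix proteins, had 2.56, 710 and 3.59 CPM in siNC and 8.62, 623 and 6.17 CPM in siPkm2, so both libraries of replicate 2 stood far above the rest. The 10 macrophage markers summed to 9.57, 62.7 and 9.33 CPM in siNC and to 16.7, 40.0 and 11.6 CPM in siPkm2, while Ptprc, which marks all leukocytes, stayed between 0 and 0.0932 CPM, and only 4 of the 10 passed the filter. Most of that sum in replicate 2 was Cd68, a lysosomal protein, with 55.5 CPM in siNC and 33.4 CPM in siPkm2. Endothelial markers summed to between 1.31 and 3.42 CPM and skeletal muscle markers to between 6.47 and 13.3 CPM. The synovial fibroblast list, which contains Col1a1 and Col3a1, summed to 4711, 6089 and 8728 CPM in siNC and to 3344, 7320 and 7049 CPM in siPkm2. The osteoblast list, which also holds Col1a1, summed to 3616, 3122 and 6153 CPM in siNC and to 1793, 3223 and 3430 CPM in siPkm2. The part of other cell types in the low collagen levels of replicate 2 was not tested, and in bulk RNA fewer chondrocytes and less collagen RNA per chondrocyte cannot be told apart.

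**Figure D2:**
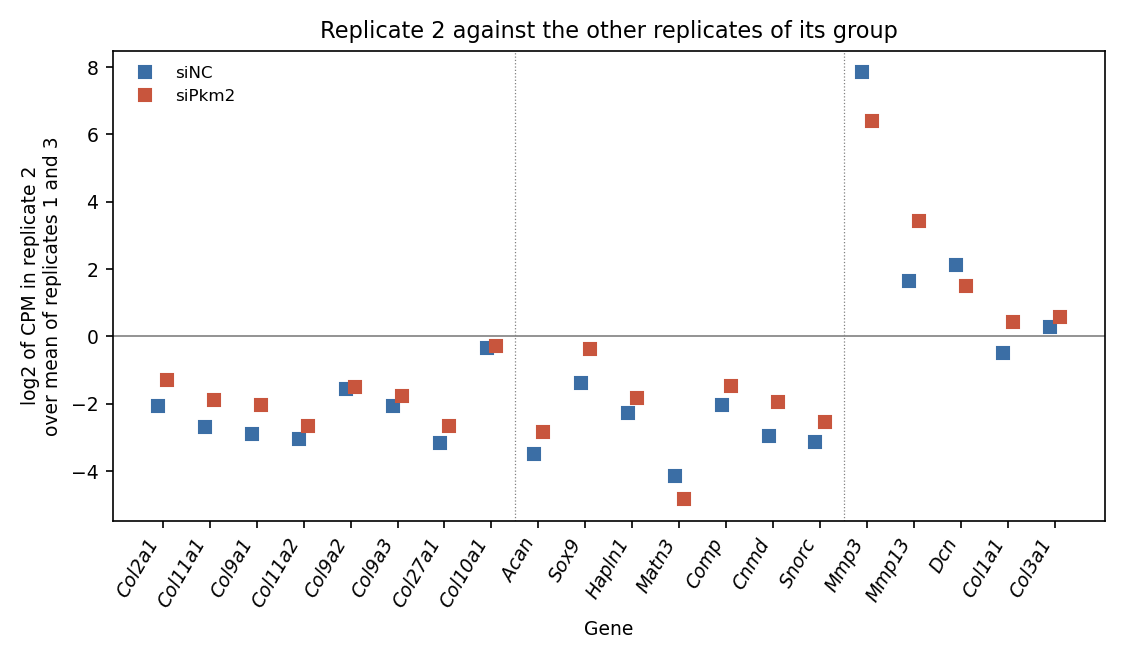
CPM in replicate 2 over the mean of replicates 1 and 3 of the same group, on a log2 scale, for the cartilage collagens (left), other chondrocyte markers (middle) and 5 matrix genes picked after their values were seen (right), with siNC in blue and siPkm2 in red. All collagens but Col10a1 lie below -1 in both groups, and Mmp3 lies far above 0.

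Split by source, the replicate number held between 88.7% (Col9a3) and 98.2% (Col11a2) of the sum of squares of log2 CPM for these genes, against a median of 56.6% over all genes tested. The group held between 0.00684% (Col11a1) and 10.7% (Col9a3), against a median of 24.4%. Across the 6 libraries, which share these replicate differences, Pearson's r of log2 CPM was between 0.907 and 0.998 for the 21 pairs among the 7 genes other than Col10a1. The correlation of Col10a1 with them was between 0.093 and 0.438. The 5 genes most like Col2a1 over the 6 libraries were Zfp213, Dock8, Zfp146, Rnf7 and Capn6, all with an r of 0.998 or 0.999, and those most like Col10a1 were Wwtr1, Gm21982, Mcm2, Tedc1 and Ddx10, with r from 0.976 to 0.994.

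Knockdown of Pkm2 was then compared with siNC. A gene was called when its fold exceeded 2 and its adjusted p lay under 0.05 in edgeR's quasi-likelihood test. The count of cartilage collagens called was 0 of 8, and the share over all genes tested was 0%. At an unadjusted p under 0.05 there were 2690 genes and 0 of the 8 collagens. DESeq2's Wald test called 430 genes, or 2.79% of those with an adjusted p, and again 0 of the 8. The groups overlapped for all 8 genes, whereas 24.3% of all genes tested had groups that did not overlap.

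Libraries with the same replicate number deviated together, so the groups were also compared within pairs. When this number entered the fit as a block, 5.83% of all genes tested passed both thresholds and 0 of the 8 collagens did. On the adjusted p alone, 1 of the 8 was higher in siPkm2, against 12.3% of all genes, and 0 of the 8 were lower, against 10.8% of all genes. That gene was Col9a3. Higher CPM in siPkm2 in all 3 pairs was measured for 5 of the 8 genes (Col9a2, Col9a3, Col10a1, Col11a2 and Col27a1), against 30.5% of all genes tested, and lower CPM in all 3 pairs for 0 of the 8, against 30.6%. The median log2 fold change with the block was 0.26 over the 8 collagens and -0.01 over all genes tested. Without the block it was 0.19 over the collagens and -0.02 over all genes.

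**Figure D3:**
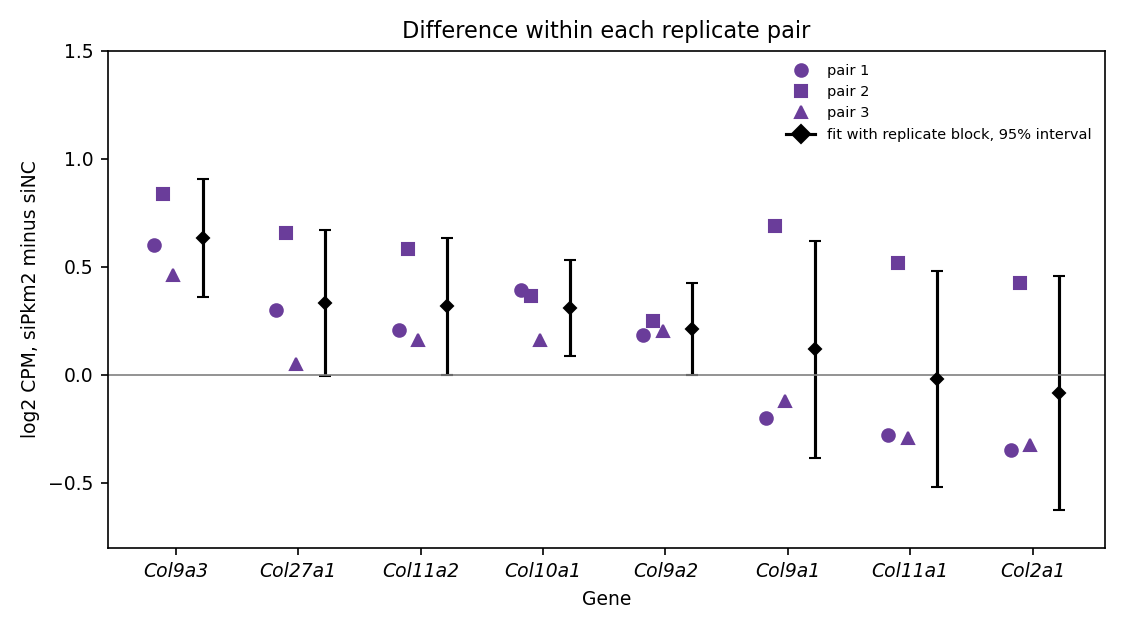
Difference in log2 CPM between siPkm2 and siNC within each replicate pair (purple), beside the fold change fitted with the replicate block and its 95% interval (black). Col9a3 lies between 0.46 and 0.84 in its 3 pairs, and Col2a1, Col9a1 and Col11a1 lie above 0 in pair 2 and below 0 in pairs 1 and 3.

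Col2a1, the fibril-forming chain (ENSMUSG00000022483, chr15:97975602-98004695, minus strand, GRCm38), had 36071, 8526 and 34887 CPM in siNC and 28381, 11449 and 27892 CPM in siPkm2. It was lower in siPkm2 in pairs 1 and 3 and higher in pair 2, and replicate 2 was the low library on both sides. The log2 fold change was -0.23 (SE 0.66, 95% interval -1.82 to 1.35, adjusted p = 0.896 by edgeR), and with the block it was -0.08 (adjusted p = 0.801). Without replicate 2 of both groups, a choice made after its values were seen, the blocked log2 fold change was -0.34, with an adjusted p of 0.0752 by edgeR. The wide interval leaves changes of more than 2-fold in either direction undecided without the block.

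Among the collagen IX chains, Col9a1 (ENSMUSG00000026147, chr1:24177610-24252684, plus strand) encodes the α1 chain, whose transcription starts at an upstream and a downstream promoter that give a longer and a shorter protein. Its estimated counts do not separate these 2 starts. Col9a1 had 3387, 425 and 2881 CPM in siNC and 2948, 684 and 2648 CPM in siPkm2, which is lower in pairs 1 and 3 and higher in pair 2. The log2 fold change was -0.09 (SE 0.83, adjusted p = 0.970 by edgeR) and turned to 0.12 with the block (adjusted p = 0.687), so the data give it no direction.

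Col9a2, which encodes the α2(IX) chain (ENSMUSG00000028626, chr4:121039385-121055322, plus strand), had 727, 227 and 601 CPM in siNC and 826, 270 and 692 CPM in siPkm2. The pair differences were alike, at 0.18, 0.25 and 0.20 on the log2 scale, and all pointed up. Its log2 fold change was 0.20 (SE 0.55, adjusted p = 0.891 by edgeR) without the block and 0.21 (SE 0.09, adjusted p = 0.125 by edgeR) with it, so the difference did not pass the threshold in either fit.

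Col9a3, which encodes the α3(IX) chain (ENSMUSG00000027570, chr2:180597790-180622189, plus strand), had 702, 151 and 567 CPM in siNC and 1065, 271 and 782 CPM in siPkm2. Each siPkm2 library was above the siNC library of its number, by 1.52-fold, 1.79-fold and 1.38-fold, while the groups overlapped through replicate 2. Without the block, the log2 fold change was 0.58 (SE 0.68, adjusted p = 0.719 by edgeR). With the block it was 0.63, or 1.55-fold (SE 0.11, 95% interval 0.36 to 0.91, adjusted p = 0.0193 by edgeR). Without replicate 2 of both groups the blocked log2 fold change was 0.52 (adjusted p = 0.00631 by edgeR). It was 0.65 without replicate 1 (adjusted p = 0.103 by edgeR) and 0.72 without replicate 3 (adjusted p = 0.107), no smaller than with all 3 pairs, and in these 2 fits 0 genes of the whole table were called. Exons of Col9a3 overlap those of Tcfl5 on the opposite strand, and its estimated counts were fractional in all 6 libraries. Tcfl5 itself had at most 708 estimated counts in any library, against at least 3741 for Col9a3, and whether the counting used strand is not given in the sources used here.

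Collagen XI joins the products of Col11a1 and Col11a2 with a chain made from Col2a1, and its 2 own genes gave estimates of opposite sign, neither past the threshold. Col11a1 (ENSMUSG00000027966, chr3:114030540-114220718, plus strand) had 7678, 1181 and 7460 CPM in siNC and 6327, 1692 and 6089 CPM in siPkm2, and like Col2a1 it was lower in pairs 1 and 3 and higher in pair 2. Its log2 fold change was -0.21 (SE 0.79, adjusted p = 0.921 by edgeR), and -0.02 with the block (adjusted p = 0.950).

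Col11a2 (ENSMUSG00000024330, chr17:34039437-34066685, plus strand) had 2257, 274 and 2258 CPM in siNC and 2606, 410 and 2529 CPM in siPkm2, higher in all 3 pairs and most so in pair 2. Its log2 fold change was 0.21 (SE 0.92, adjusted p = 0.934 by edgeR), and 0.32 with the block (SE 0.13, adjusted p = 0.122). Both chains were low in replicate 2 of either group.

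Col27a1, which encodes the chain of collagen XXVII (ENSMUSG00000045672, chr4:63214004-63334991, plus strand), had 321, 45.8 and 506 CPM in siNC and 395, 72.2 and 523 CPM in siPkm2. It was higher in all 3 pairs, by 0.30, 0.66 and 0.05 on the log2 scale, and it was the gene with the deepest drop in replicate 2 of both groups. Its log2 fold change was 0.18 (SE 0.95, adjusted p = 0.946 by edgeR) and 0.33 with the block (adjusted p = 0.127). The miRNA gene Mir455 lies within Col27a1 on the same strand and had 0 estimated counts.

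Col10a1, the collagen of hypertrophic chondrocytes (ENSMUSG00000039462, chr10:34389981-34397085, plus strand), had 58.8, 34.9 and 29.2 CPM in siNC and 77.3, 44.9 and 32.8 CPM in siPkm2. Replicate 3, not replicate 2, was its lowest library in both groups, and replicate 1 was the highest. The difference was positive in all 3 pairs, at 0.39, 0.37 and 0.16 on the log2 scale. The log2 fold change was 0.33 (SE 0.39, adjusted p = 0.717 by edgeR) and 0.31 with the block (SE 0.09, adjusted p = 0.0585). With the block this was 1.24-fold, so neither the fold nor the adjusted p passed its threshold. Exons of Nt5dc1 overlap those of Col10a1 on the opposite strand. Nt5dc1 had at most 270 estimated counts in any library, against at least 668 for Col10a1.

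Ratios between chains remove what 2 chains share in a library. For 6 ratios of TPM the exact two-sided permutation test over the 6 libraries cannot give a p below 0.1, and an exact sign-flip test over the 3 pairs cannot give one below 0.25, so neither could pass 0.05 and the p-values are given for completeness. Those over the 6 libraries, adjusted over the 6 ratios by Benjamini-Hochberg, lay between 0.72 and 0.9, and the ratios are described by their differences within pairs. The ratio of Col9a3 to Col9a2 was 0.939, 0.651 and 0.834 in siNC and 1.18, 0.936 and 1.06 in siPkm2, which is higher in all 3 pairs. On the log2 scale the difference within pairs was 0.40 ± 0.11 (SD, n = 3 pairs; exact permutation p = 0.2 over the libraries, exact sign-flip p = 0.25 over the pairs). The ratio of Col11a1 to Col11a2 was 2.55, 3.40 and 2.34 in siNC and 1.80, 2.92 and 1.80 in siPkm2, lower in all 3 pairs, with a log2 difference of -0.37 ± 0.14 (SD, n = 3 pairs; exact permutation p = 0.3, exact sign-flip p = 0.25).

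Both ratios of a minor fibril chain to Col2a1 were higher in siPkm2 in all 3 pairs, by small amounts. The ratio of Col11a1 to Col2a1 was 0.148, 0.0955 and 0.144 in siNC and 0.150, 0.102 and 0.150 in siPkm2, with log2 differences of 0.02, 0.09 and 0.06 in pairs 1, 2 and 3 (exact permutation p = 0.5, exact sign-flip p = 0.25). That of Col9a1 to Col2a1 was 0.132, 0.0722 and 0.117 in siNC and 0.143, 0.0861 and 0.132 in siPkm2, with log2 differences of 0.12, 0.25 and 0.17 in the pairs (exact permutation p = 0.6, exact sign-flip p = 0.25). Both ratios were lowest in replicate 2 of either group. Col9a1 to Col9a2 gave 3.38, 1.37 and 3.26 in siNC and 2.49, 1.83 and 2.62 in siPkm2, a log2 difference of -0.11 ± 0.46 (SD, n = 3 pairs; exact permutation p = 0.9, exact sign-flip p = 0.75) with no common direction in the pairs. Col2a1 over Col1a1, which sets the hyaline collagen against the collagen of fibrous tissue and bone, was 14.6, 3.41 and 7.44 in siNC and 24.8, 4.43 and 10.4 in siPkm2. It was higher in siPkm2 in all 3 pairs, with a log2 difference of 0.54 ± 0.20 within pairs (SD, n = 3 pairs; exact permutation p = 0.6, exact sign-flip p = 0.25), and the libraries of a group spread more widely than that.

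**Figure D4:**
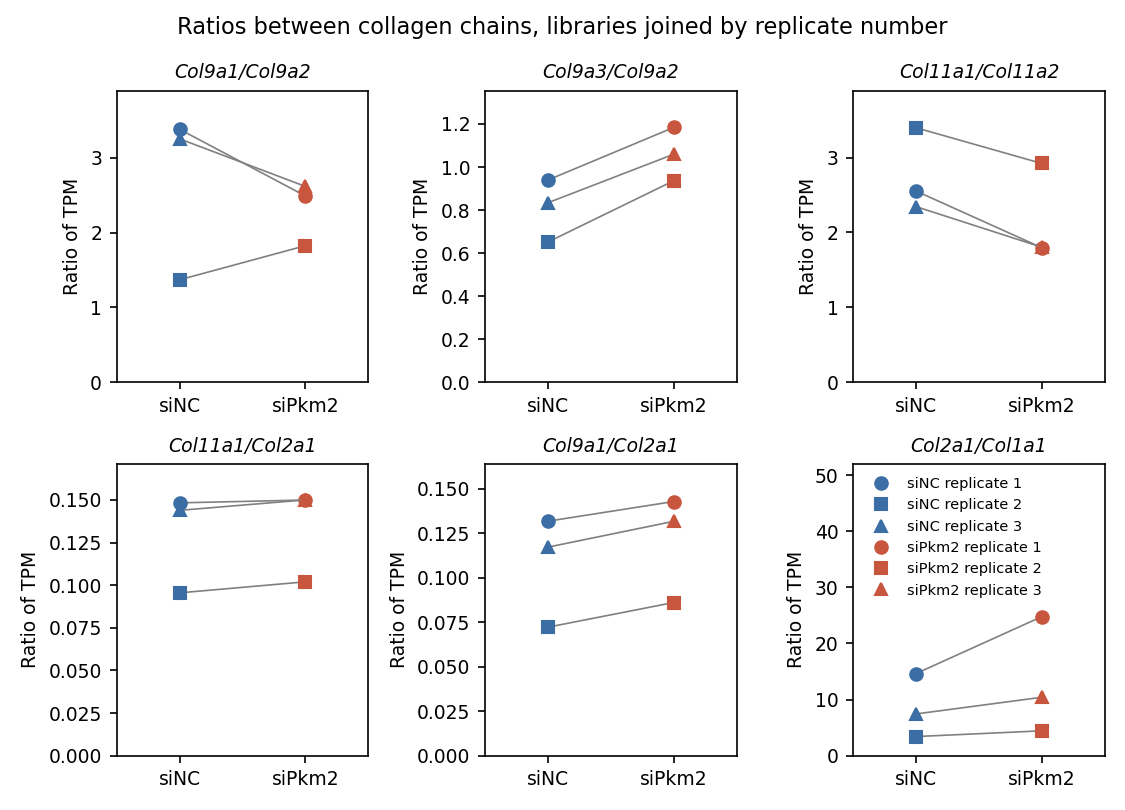
Ratio of TPM between pairs of collagen chains in each library, with grey lines joining siNC (blue) to siPkm2 (red) of the same replicate number. The ratio of Col9a3 to Col9a2 goes up in all 3 pairs and that of Col11a1 to Col11a2 goes down in all 3, while the groups overlap in every panel.

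Outside these 8 genes, some other collagen chains were called. Of 36 other chains, 33 were tested, and with the block 1 was called higher and 5 lower in siPkm2 (0 without the block), against 5.83% of all genes tested, with a median log2 fold change of -0.03. Col28a1, a collagen mainly of the nervous system, was the higher one, with a log2 fold change of 1.53 (adjusted p = 0.0169 by edgeR with the block). The lower ones were the collagen VI chains Col6a5 (-2.39) and Col6a6 (1.40, 1.33 and 14.1 CPM in siNC, against 0.233, 0.467 and 3.43 CPM in siPkm2), Col8a2 (-2.17), the basement membrane collagen gene Col15a1 (-2.34) and Col20a1 (-2.38), the single values being log2 fold changes with the block. Col8a2, which encodes a short-chain collagen, had 124, 25.8 and 134 CPM in siNC and 19.2, 13.0 and 20.1 CPM in siPkm2, so its groups did not overlap. On the adjusted p alone, 5 other chains were higher and 7 lower with the block, against 12.3% and 10.8% of all genes tested. Among the higher ones were Col5a1 (0.53, adjusted p = 0.0283 by edgeR with the block) and Col5a2 (0.93, adjusted p = 0.0133), whose products form collagen V, a relative of collagen XI that can share trimers with it; they were picked after their values were seen. Col1a1 did not pass (log2 fold change -0.62 with the block, adjusted p = 0.111 by edgeR).

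**Figure D5:**
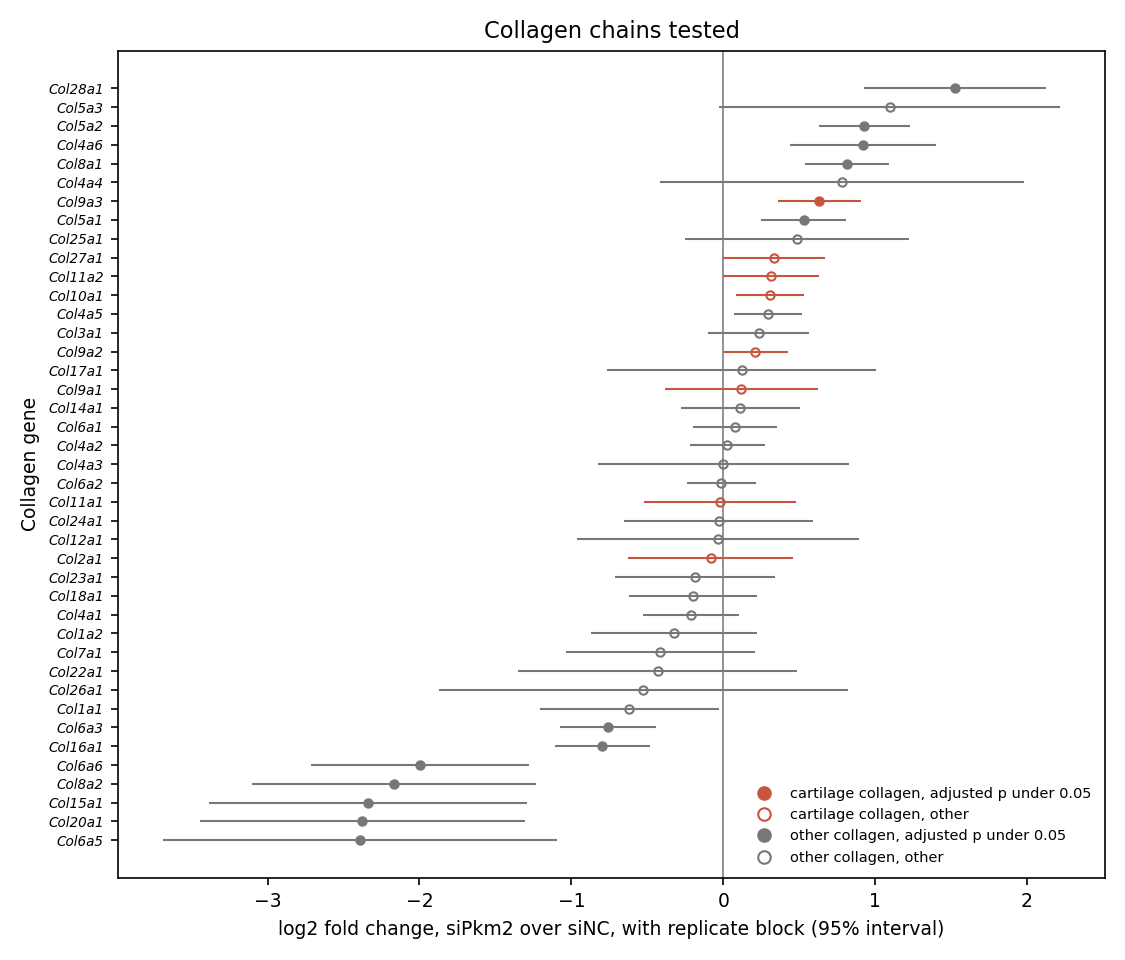
Log2 fold change of siPkm2 over siNC with the replicate block, with its 95% interval, for the 41 collagen chains tested; cartilage collagens are red, other chains are grey, and filled points have an adjusted p under 0.05. Col9a3 is the only filled red point, and Col6a5 at -2.39 and Col28a1 at 1.53 mark the ends of the range. Col6a5 was near the floor, at 0.0405 CPM in siNC replicate 2 and 0.0389 CPM in siPkm2 replicate 2.

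Regulators of the cartilage collagen genes included 20 factors, of which 19 were tested. With or without the block 0 were called, against 5.83% of all genes tested with it. Their median log2 fold change was -0.05 with the block. Sox9 had 180, 82.5 and 252 CPM in siNC and 145, 128 and 189 CPM in siPkm2, with a log2 fold change of -0.16 without and -0.04 with the block (adjusted p = 0.912 by edgeR). The largest estimates were those of the homeobox genes Dlx5 (-1.06) and Dlx6 (-1.20), neither past the threshold with the block (adjusted p = 0.104 and 0.133 by edgeR). On the adjusted p alone, Klf4 was higher (0.96, adjusted p = 0.0189 by edgeR with the block) and Sox5, a partner of SOX9, was lower (-0.41, adjusted p = 0.0261). That is 1 higher and 1 lower of 19, against 12.3% and 10.8% of all genes tested. Runx2 (-0.41, adjusted p = 0.0587 by edgeR with the block) and Mef2c (-0.37, adjusted p = 0.0702) did not pass. Both were lower in siPkm2 in all 3 pairs, as were 30.6% of all genes tested.

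Genes for the assembly and maturation of collagen chains were 34, of which 33 were found by the names used and 32 were tested. With the block 1 was called higher and 0 were called lower, against 5.83% of all genes tested that were called. That gene, Loxl4, encodes an enzyme that cross-links collagen. Loxl4 had 869, 193 and 418 CPM in siNC and 3616, 798 and 1959 CPM in siPkm2, a log2 fold change of 2.11 (adjusted p = 0.00932 by edgeR with the block). Each of its siPkm2 libraries was well above its partner, and like the collagens it was lowest in replicate 2. Tll1, a procollagen C-proteinase, had the next estimate (1.54, adjusted p = 0.0757 by edgeR with the block). On the adjusted p alone 6 of the 32 were higher and 3 lower, against 12.3% and 10.8% of all genes tested. Among them were the lysyl hydroxylase Plod2 (0.81, adjusted p = 0.0122 by edgeR with the block) and the prolyl hydroxylase family member P3h3 (-0.86, adjusted p = 0.0112).

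The list named fibril partners in cartilage held 22 genes, of which 20 were tested, and not all of their products bind collagen fibrils. With the block 2 were called higher and 1 lower, against 5.83% of all genes tested that were called. Epyc and Dcn, small leucine-rich proteoglycans, had log2 fold changes of 1.30 (adjusted p = 0.00942 by edgeR with the block) and 1.28 (adjusted p = 0.0148). Thbs1, a thrombospondin, had -1.12 (adjusted p = 0.0134 by edgeR with the block). Matn3, a matrilin, passed the adjusted p (0.86, adjusted p = 0.0206 by edgeR with the block) but not the fold. Fmod, fibromodulin, was lower on the adjusted p alone (-0.93, adjusted p = 0.0112 by edgeR with the block). Cnmd, which encodes chondromodulin, did not pass (-0.40, adjusted p = 0.238 by edgeR with the block), and neither did Acan (0.58, adjusted p = 0.0567).

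The lists of proteases, receptors and hypertrophy genes were read against the 5.83% of all genes tested that were called with the block. Of 12 collagen-degrading proteases 10 were tested. With the block Ctsk, cathepsin K, was called higher (1.19, adjusted p = 0.0130 by edgeR) and Mmp9 lower (-1.96, adjusted p = 0.0227). Mmp9 stayed under 4 CPM in every library. Among 10 collagen receptors 8 were tested, and the integrin chains Itga2 (1.24, adjusted p = 0.0173 by edgeR with the block) and Itga11 (-1.09, adjusted p = 0.0119) were called in opposite directions. Of 11 hypertrophy genes 10 were tested and 0 were called higher. The bone matrix genes Ibsp (-1.45, adjusted p = 0.0278 by edgeR with the block) and Spp1 (-1.24, adjusted p = 0.0133) were called lower, while Col10a1 was not.

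Cell type lists were read against the same share of all genes called with the block, 5.83%. Of the 10 chondrocyte markers 0 were called with the block, and 1 was higher on the adjusted p alone, against 12.3% of all genes tested. Synovial fibroblast markers gave 2 called higher of 9 tested, namely Prg4, which encodes lubricin (2.15, adjusted p = 0.0271 by edgeR with the block), and Pdpn, podoplanin (1.19, adjusted p = 0.0272). The study also lists PRG4 among matrix genes of a chondrocyte subgroup in human cartilage. Of the 9 tested, 5 were higher in all 3 pairs, against 30.5% of all genes tested. Only Thy1 was lower in all 3 pairs, against 30.6% of all genes (-0.92, adjusted p = 0.108 by edgeR with the block). Ibsp was the 1 osteoblast marker called of 6 tested, and it was lower. Of 4 macrophage markers tested 0 were called, with log2 fold changes with the block of 0.48 for Cd68 and 0.28 for Csf1r, and of 2 endothelial markers tested 0 were called, with 1.00 for Tek and 0.73 for Vwf. Of 4 skeletal muscle markers tested, Des (2.46) was called higher and Tnnt3 (-1.53) lower, both under 11 CPM in every library. Phex, an osteoblast marker that did not pass, had -0.61 with the block. The part of other cell types in the collagen estimates was not tested.

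Sites for the seed of the siRNA were listed last. The supplementary methods name a siPkm2 number 3 as the one selected, without tying it to the sequenced cells. Its antisense strand and the 2 stretches of collagen 3′ untranslated region that hold the complement of its seed are shown with the seed (bases 2 to 8) or the site in capitals.
siPkm2 antisense: uGUUUCUCcagacagcaugtt
Col9a1: gagtgtgggggGAGAAACgataccaaaac
Col11a1: aaagtatgtatGAGAAACtgctttaacat
The site GAGAAAC was found once in Col9a1, 58 bases into the region, and once in Col11a1, 819 bases into it, and in none of the other 6 cartilage collagens. It was found in 17.9% of 13273 tested genes with a 3′ untranslated region. Both Col9a1 and Col11a1 were lower in siPkm2 in pairs 1 and 3 and higher in pair 2, as was Col2a1, which lacks the site. Whether the seed acted on any of these transcripts was not tested.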

How the data were processed

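RNA of 6 cultures of primary mouse chondrocytes (siNC and siPkm2, 3 libraries each) was measured by RNA-seq. The authors deposited estimated counts per gene, not normalized, and TPM values. The deposited table also holds the authors' own group means and comparison, including fold change as a ratio, log2 fold change and p-value, which were not used. The submitters' processing notes name the build mm9 and edgeR; the aligner, the counter and strandedness are not given in the sources used here. Gene identifiers were matched to GENCODE M21 on GRCm38 (52135 of 55416, 94.1%), from which positions were taken.

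These estimated counts, after rounding, were analysed with edgeR 4.0.16 in R 4.3.3: filterByExpr, TMM factors, quasi-likelihood test and Benjamini-Hochberg adjustment over the 15269 genes kept. DESeq2 1.42.0 on the rounded counts and limma 3.58.1 on log2(TPM + 0.5) were alternatives. The libraries were paired by the replicate numbers in the labels, and what these numbers stand for is not stated. Deviations from group means correlated at 0.72, 0.79 and 0.72 across genes for equal numbers and at 0.217 or less for unequal ones. Because deviations were taken within groups of 3 libraries, the values for unequal numbers depend on those for equal numbers. No 2 libraries of a group agreed within sampling noise. Without the block, precision was set by the spread between libraries rather than by depth.

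Members and lists were chosen with earlier results of these data known. Named genes were the 8 collagens, Pkm and the genes called in each list, with or without the block. Where fewer than 2 were called, the 2 with the largest log2 fold change were named. Col1a1, Col5a1, Col5a2, Sox5, Sox9, Klf4, Runx2, Mef2c, Plod2, P3h3, Fmod, Acan, Thy1 and Mmp3 were added after their values were seen.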

Additional observations from a re-analysis of the deposited data

How the results depend on the processing

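The main comparison called 0 genes, and the replicate block changed that most. With the replicate block (pairing by replicate number) 890 genes were called, 16 of them among the listed genes of the collagen pathway, and 0 of the 8 cartilage collagens. Dropping the fold threshold as well, a choice made after seeing the data, gave 3524 genes, 42 list genes and 1 cartilage collagen, Col9a3; no other cartilage collagen changed its call under the block. DESeq2 called 430 genes and 10 list genes without the block, and 1028 and 18 with it. Upper-quartile factors gave 3 genes, a minimum of 10 counts in every library 3, and no filter 9. Leaving out 1 library gave 0 to 105 genes, the 105 without siNC replicate 2, with 0 to 1 list genes and 0 to 0 cartilage collagens. Without replicate 2 of both groups 507 genes and 7 list genes were called, and 1639 and 23 with the block added after seeing the data; without replicate 1 or 3 of both groups and with the block the count stayed at 0. Scaling by TMM, RLE or upper-quartile factors moved the median of all genes by less than 0.1 (log2).

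Leaving out 1 library of an unpaired fit, which breaks a pair, moved the log2 fold change from -0.65 to 0.091 for Col2a1, -0.58 to 0.35 for Col9a1, -0.15 to 0.55 for Col9a2, -0.082 to 0.70 for Col10a1, -0.69 to 0.19 for Col11a1, -0.29 to 0.69 for Col11a2 and -0.32 to 0.85 for Col27a1, and from 0.14 to 0.98 for Col9a3, which kept its sign. The lowest values came without siNC replicate 2, except without siPkm2 replicate 1 for Col9a3 and Col10a1. The highest came without siPkm2 replicate 2, except without siNC replicate 1 for Col9a1, Col9a3 and Col10a1 and without siNC replicate 3 for Col27a1. For Col9a1 the sign also turned with the block (0.12 by edgeR, 0.13 by DESeq2), on TPM with limma (0.053, with or without the block) and with the block without replicate 1 (0.28) or replicate 3 (0.25). In the last 2 settings the sign also turned for Col2a1 (0.051 and 0.042), Col11a1 (0.11 and 0.12) and Sox9 (0.11 and 0.16). With the block and without replicate 1, 2 or 3 of both groups, Col9a2, Col9a3, Col10a1, Col11a2 and Col27a1 stayed higher in siPkm2 each time. With the block the adjusted p of Col9a3 was 1.15e-05 by DESeq2 and 0.0233 by limma on TPM, with a fold under 2 in both. That of Col10a1 with the block was 0.0827 by DESeq2 and 0.164 by limma on TPM.

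Ratios with 1 library left out ran from -0.54 to 0.11 for Col9a1/Col9a2, 0.25 to 0.52 for Col9a3/Col9a2, -0.60 to -0.21 for Col11a1/Col11a2, -0.15 to 0.24 for Col11a1/Col2a1, -0.082 to 0.40 for Col9a1/Col2a1 and -0.081 to 1.16 for Col2a1/Col1a1. Among other genes the ranges that crossed 0 were -3.97 to 0.0083 for Col6a6, -0.14 to 2.03 for Matn3, -1.45 to 0.53 for Phex, -1.37 to 2.41 for Cd68, -0.18 to 0.64 for Csf1r, -0.49 to 0.23 for Sox9 and -0.12 to 0.90 for Acan. Cd68 also turned with the block (0.48 by edgeR, 0.62 by DESeq2), on TPM (0.54), without replicate 2 (1.35, and 1.31 with the block) and with the block without replicate 3 (0.26). Csf1r (-0.27) and Vwf (-0.29) turned on TPM. The cause was not tested.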
